A study of Homo sapiens with 6 samples.

Results

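Cancer-testis antigen genes are genes whose proteins are normally made in germ cells of the testis and reappear in tumours. Members were taken by symbol from the GENCODE 29 protein-coding genes: all MAGEA, MAGEB, MAGEC, MAGED, GAGE, PAGE, XAGE, CTAG, CT45A, CT47A, CSAG and SPANX genes, SSX genes with a number, and PASD1, PRAME and SYCP1. This rule found 109 genes among 59565 loci in the count table, and 100 of them lie on chromosome X. Of these, 102 belong to the families and 7 only share letters with a family name (SSX2IP and 6 CTAGE genes) and are reported apart. The families were proposed with the same contrast of these libraries in view, so the calls below describe the members and support nothing. Several families are sets of near-identical copies, so counts of close paralogs were summed, which left 56 rows for the families.

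The samples are human C4-2 cells, an androgen-independent prostate cancer line derived from LNCaP. A parental group (3 libraries) was compared with a group labelled Enz-R (3 libraries), resistant to enzalutamide, an antiandrogen drug. The labels do not say how the resistant line was derived, whether it is a clone, or whether the drug was present at collection, and they name no separate cultures, so the spread between libraries may be technical. Library totals ran from 15673404 to 28247038 counts. Levels are given as CPM, counts scaled to a common library size with TMM factors. All 10 prostate luminal markers examined had counts. Their summed level was 10215 to 10868 CPM in the parental and 5890 to 6124 CPM in the Enz-R libraries. By the test given below, 7 of the 10 were lower in Enz-R cells, 2 were higher and 1 was not called. Over all genes tested, 32.3% were lower and 32.4% higher. Of 8 testis germ cell markers, PRM1, PRM2, TNP1, TNP2, ZPBP and DAZL were at 0 in every library and the whole list summed to at most 0.882 CPM. Mitochondrially encoded genes took 8.78% to 11.3% of parental and 14.5% to 15.5% of Enz-R counts, and the part of this difference in the results was not tested. In bulk RNA, fewer cells that express a gene and less RNA per cell cannot be told apart.

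In somatic tissues, most of these genes are held silent by methylation of the CG pairs in their promoters, and loss of that methylation is the best known route by which they become active in tumours. Many lie in clusters of recent duplicates on chromosome X. The MAGE proteins share a domain that binds RING ubiquitin ligases. GAGE, PAGE and XAGE proteins are small, disordered relatives of each other, and several of the families, among them MAGEA and CTAG, are targets of cancer vaccines or engineered T cells.

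The promoters of 4 genes are shown because these genes, alone or with their copies, include the largest fall and some of the largest rises, and because 2 of them, GAGE1 and PAGE1, are related. Each run is the 300 bases from 250 before to 50 after the RefSeq start on GRCh38.p14, and capitals mark CG pairs and the E-box letters CACGTG. GAGE1 lies at chrX:49598763-49599062 on the plus strand, PAGE1 at chrX:49695935-49696234 on the minus strand, PASD1 at chrX:151563425-151563724 on the plus strand and MAGEA4 at chrX:151912224-151912523 on the plus strand. In GENCODE 29 the span of GAGE1 starts upstream of its printed run, at 49589496, so that run lies inside the annotated gene.
GAGE1: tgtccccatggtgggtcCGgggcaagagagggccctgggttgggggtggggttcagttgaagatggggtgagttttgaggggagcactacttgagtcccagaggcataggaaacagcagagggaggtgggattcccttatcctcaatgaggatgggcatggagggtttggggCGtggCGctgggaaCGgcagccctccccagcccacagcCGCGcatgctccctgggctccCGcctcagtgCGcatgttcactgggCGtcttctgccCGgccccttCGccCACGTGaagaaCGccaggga
PAGE1: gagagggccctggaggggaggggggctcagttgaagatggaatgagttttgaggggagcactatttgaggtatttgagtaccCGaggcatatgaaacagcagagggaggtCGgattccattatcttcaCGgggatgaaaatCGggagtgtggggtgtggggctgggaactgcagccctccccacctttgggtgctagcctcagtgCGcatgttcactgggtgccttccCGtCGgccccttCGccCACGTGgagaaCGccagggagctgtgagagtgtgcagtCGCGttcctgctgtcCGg
PASD1: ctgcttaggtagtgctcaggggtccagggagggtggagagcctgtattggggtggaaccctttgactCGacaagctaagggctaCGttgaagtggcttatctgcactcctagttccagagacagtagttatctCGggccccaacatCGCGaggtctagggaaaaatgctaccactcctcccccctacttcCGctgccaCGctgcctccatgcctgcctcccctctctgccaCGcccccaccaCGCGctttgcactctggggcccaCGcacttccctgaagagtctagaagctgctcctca
MAGEA4: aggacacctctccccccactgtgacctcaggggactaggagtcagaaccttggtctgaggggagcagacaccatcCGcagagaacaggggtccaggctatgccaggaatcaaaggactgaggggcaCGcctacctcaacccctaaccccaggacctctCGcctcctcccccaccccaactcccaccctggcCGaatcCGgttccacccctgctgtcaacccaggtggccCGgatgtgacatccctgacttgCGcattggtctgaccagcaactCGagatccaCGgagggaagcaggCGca
The runs were aligned end to end, with gaps at the ends not penalised. GAGE1 and PAGE1 matched at 215 of 255 aligned bases (84.3%), with the E-box near the start in both. The PASD1 and MAGEA4 runs aligned with each other over only 56 bases and with the GAGE1 run over 8 and 29 bases. Such an alignment can settle on a short overlap of the ends, so these lengths do not exclude longer matches inside the runs.

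Of the 56 family rows, 20 passed the filter on low counts. In Enz-R cells 12 of these were higher, 6 were lower and 2 did not pass the threshold (edgeR quasi-likelihood test, Benjamini-Hochberg adjusted p under 0.05). Over all 19019 rows tested, 64.8% were called, 32.5% higher and 32.4% lower. The median log2 fold change of the 20 rows was 0.33, against 0.01 over all rows. The groups did not overlap in 17 of the 20, and in 68.9% of all rows. A row could pass the filter through the group in which it was high, so these shares do not stand for all members. The summed level of the 102 family genes was 1042, 1042 and 1079.6 CPM in the parental and 1344, 1264 and 1274 CPM in the Enz-R libraries. The total was thus higher in each Enz-R library, while its makeup moved. Among the rows whose share fell were MAGEA10, MAGED2, PASD1 and MAGEA1, and among those whose share rose were PAGE1, GAGE and CTAG2. MAGED2 made up 10.3% of the family total in parental and 5.14% in Enz-R cells, PASD1 4.21% and 0.0248%, and GAGE 2.56% and 9.97%.

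**Figure D1:**
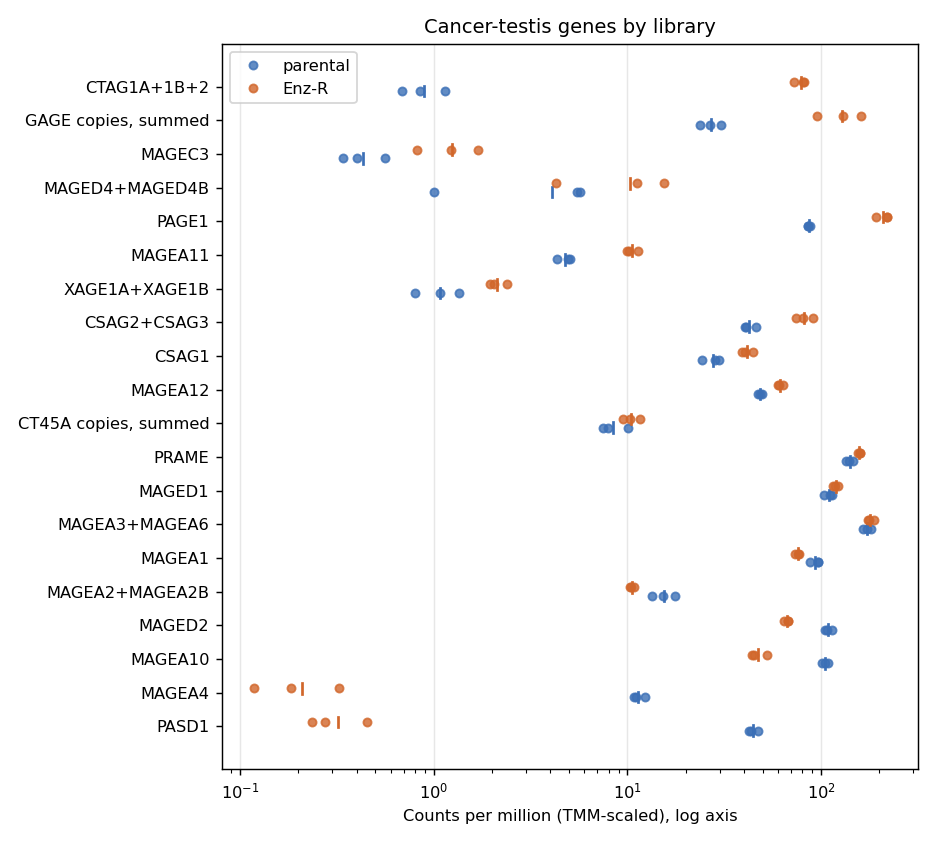
TMM-scaled CPM (log axis) of the 20 family rows that passed the filter, ordered by fold change, with 1 point per library (blue parental, orange Enz-R) and a tick at each group mean. The CTAG row sits between 0.683 and 1.15 CPM in parental and between 72.5 and 81.8 CPM in Enz-R libraries, and PASD1 shows the opposite pattern.

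The CTAG genes encode the antigens NY-ESO-1 (CTAG1A and CTAG1B, 2 copies of a gene) and LAGE-1 (CTAG2). Their summed level was 1.15, 0.851 and 0.683 CPM in the parental and 81.8, 72.5 and 81.1 CPM in the Enz-R libraries. The groups lay far apart, with a mean of 0.895 ± 0.236 CPM against 78.5 ± 5.16 CPM (SD, n = 3 each). This was a log2 fold change of 6.40 ± 0.12 (SE), or 84.6-fold higher. Nearly all of these counts were assigned to CTAG2 (chromosome X, 154651972 to 154653579), with 64 counts in the 3 parental libraries and 4265 in the 3 Enz-R libraries. CTAG1B had 0 and 3 counts and CTAG1A 0 and 9. CTAG2 shares only 11.5% of its 150-base transcript windows with another gene, so most of a CTAG2 transcript can be told from CTAG1A and CTAG1B at the read length used. CTAG1A and CTAG1B share 76.8% and 76.3% of their windows. Their low counts may therefore also depend on how reads that fit several genes were assigned.

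The GAGE genes encode small acidic antigens recognised by T cells. Summed over the copies, GAGE stood at 23.7, 26.8 and 30.5 CPM in parental and 161, 129.9 and 95.8 CPM in Enz-R libraries. Every Enz-R library was above every parental library, but the Enz-R libraries differed among themselves, with a mean of 129 ± 32.8 CPM against 27.0 ± 3.40 CPM. The sum had a log2 fold change of 2.27 ± 0.14. At gene level, 5 of the 13 GAGE genes passed the filter and all 5 were higher, beside 32.4% of all genes tested. GAGE2A had overlapping groups, and GAGE12B, GAGE12D and GAGE12H had no count in any library. GAGE1 carried the most counts, with 15.1, 13.3 and 13.1 CPM in parental and 31.9, 53.7 and 67.1 CPM in Enz-R cells.

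Several single GAGE copies varied between libraries of a group more than their sum. GAGE12G stood at 58.6 CPM in Enz-R library 1 but at 3.12 and 2.33 CPM in the other Enz-R libraries, and GAGE2A at 45.8, 45.7 and 5.95 CPM. The coefficient of variation in Enz-R cells was 151% for GAGE12G, 70.7% for GAGE2A, 34.9% for GAGE1, 11.6% for GAGE13 and 25.4% for the sum. In parental cells it was 7.99% for GAGE1 and 12.6% for the sum. DESeq2 called neither GAGE12G nor GAGE2A, and GAGE12G had a log2 fold change of 4.63 with all libraries and 1.62 without Enz-R replicate 1. Every 150-base window of the GAGE12G, GAGE12C and GAGE2E transcripts also occurs in another annotated gene, and so do 64.0% of the GAGE13 and 63.5% of the GAGE12J windows. For GAGE2A this share is 31.9%. For GAGE1 it is 9.83%, but over its longest annotated transcript of 3129 bases, against 527 bases for GAGE12G. Shorter GAGE1 transcripts may share more of their windows. GAGE2A (49589529 to 49596827) lies within the annotated span of GAGE1 (49589496 to 49608536). How the counting assigned reads that fit several copies is not given in the sources used here, so values of single copies are uncertain and the sum is the value to read.

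**Figure D2:**
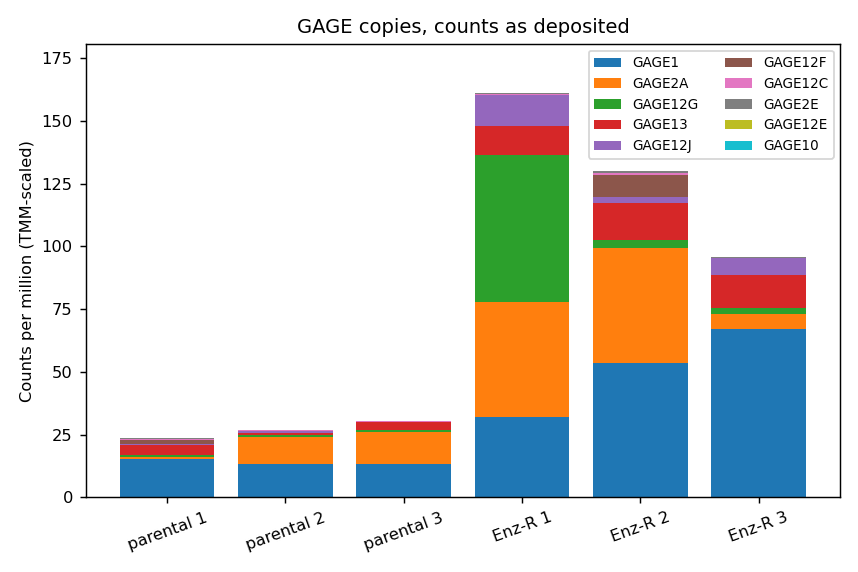
Stacked TMM-scaled CPM of the 10 GAGE genes with counts, as deposited, for each of the 6 libraries. The bar height, the sum, is 95.8 to 161 CPM in Enz-R and 23.7 to 30.5 CPM in parental libraries, while the share of GAGE12G (green) and GAGE2A (orange) differs widely between libraries of a group.

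PAGE1, a GAGE relative first found in prostate tumour lines, showed the same direction with less spread. It stood at 85.7, 88.0 and 85.9 CPM in parental and 218, 191 and 218 CPM in Enz-R libraries. The log2 fold change was 1.27 ± 0.07, and 0% of its transcript windows are shared. Per kilobase of annotated exon, the scale on which levels of different genes can be compared, PAGE1 was the highest row of the families in both groups, at 130.1 CPM per kb in parental and 315 CPM per kb in Enz-R cells. The other PAGE genes had few counts: PAGE4, named for its expression in prostate, had 9 and 8 counts over the parental and Enz-R libraries, PAGE2 with PAGE2B 12 and 14, PAGE5 0 and 1, and PAGE3 none. XAGE1A and XAGE1B, a pair whose transcripts share all windows, summed to 0.801, 1.35 and 1.07 CPM in parental and 2.38, 2.06 and 1.94 CPM in Enz-R libraries. Their log2 fold change was 1.02 ± 0.25 on 72 and 117 counts. XAGE2 and XAGE3, under the filter, went the other way in counts, with 20 against 2 and 16 against 1.

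MAGEA genes encode the classical tumour antigens of the family, and they did not move as a group. Of 9 rows, 7 passed the filter: 2 were higher, 4 were lower and 1 was not called. The shares over all rows tested were 32.5% higher and 32.4% lower. The family sum was 431, 458 and 466 CPM in parental and 398, 377 and 379 CPM in Enz-R libraries, so it was lower in Enz-R without overlap.

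MAGEA4, a target of engineered T-cell therapy whose protein binds the ubiquitin ligase RAD18, showed the largest change in this family. It stood at 11.1, 10.8 and 12.3 CPM in parental libraries and at 0.183, 0.118 and 0.324 CPM in Enz-R libraries. This is 787 counts against 11. MAGEA4 was 54.7-fold lower (log2 fold change -5.77 ± 0.24), and the SE can be too small at such low counts. MAGEA10, another T-cell target, stood at 101, 109 and 105 CPM in parental and 52.3, 44.0 and 45.0 CPM in Enz-R libraries, a log2 fold change of -1.15 ± 0.07. Of its transcript windows 12.3% are shared with an overlapping annotated gene.

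MAGEA1, the first human tumour antigen found to be recognised by T cells, was 93.4 ± 4.88 CPM in parental and 75.6 ± 1.65 CPM in Enz-R cells, with a log2 fold change of -0.30 ± 0.06. Its libraries ran from 87.8 to 96.3 CPM and from 73.8 to 76.9 CPM, without overlap. MAGEA2 with its copy MAGEA2B was at 13.4, 15.3 and 17.6 CPM against 10.4, 10.8 and 10.4 CPM, a log2 fold change of -0.55 ± 0.11. Counts were split unevenly between these 2 copies, whose transcripts share 97.8% to 100% of their windows.

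MAGEA11 encodes a transcriptional coregulator. Its level was 4.91, 4.31 and 5.08 CPM in parental and 11.4, 10.2 and 9.90 CPM in Enz-R libraries, a log2 fold change of 1.14 ± 0.13. MAGEA12 was higher by a small step, from 47.5, 49.6 and 48.3 CPM to 60.7, 63.3 and 60.2 CPM (log2 fold change 0.34 ± 0.06).

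MAGEA3 and MAGEA6 encode near-identical partners of the ubiquitin ligase TRIM28 that direct it to the energy sensor AMPK. Their sum was the second highest family row per kilobase in parental cells, at 95.4 CPM per kb, and was 166, 173 and 181 CPM in parental against 187, 175 and 176 CPM in Enz-R libraries. These ranges overlap, and the log2 fold change of 0.05 ± 0.06 was not called and changed sign with total count scaling (-0.04). Taken singly, MAGEA3 (0.17 ± 0.06, called higher) and MAGEA6 (-0.15 ± 0.06, not called) lay near the threshold. MAGEA3 was not called without parental replicate 1 (0.13) or 2 (0.14) or Enz-R replicate 1 (0.14), with total count scaling (0.07) or with no filter (0.15). MAGEA6 was called lower without parental replicate 1 (-0.20) or Enz-R replicate 1 (-0.18) and with total count scaling (-0.25). The pair shares 27.9% of its windows. MAGEA8 had 7 parental counts and none in Enz-R, and MAGEA9 with MAGEA9B had 1 and 2.

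CSAG genes lie among the MAGEA genes, and CSAG2 is also known as a taxol resistance-associated gene. CSAG2 and CSAG3 together were at 46.2, 41.0 and 40.7 CPM in parental and 74.4, 81.0 and 90.9 CPM in Enz-R libraries, a log2 fold change of 0.94 ± 0.08. CSAG1 was at 29.7, 28.4 and 24.4 CPM against 44.8, 40.5 and 39.3 CPM (0.59 ± 0.08). Both rows were higher in all Enz-R libraries. Singly, CSAG3 was called higher (1.17 ± 0.11) and CSAG2 was not called (-0.55 ± 0.24), and 78.4% of their windows are shared. CSAG2 was called lower without parental replicate 1 (-0.87) or Enz-R replicate 3 (-0.66). It was also called lower with a block for replicate number (-0.49), total count scaling (-0.65) or no filter (-0.56).

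These genes are interleaved: between 152698752 (start of MAGEA3) and 152769747 (end of MAGEA6) on chromosome X lie both CSAG rows, MAGEA2, MAGEA2B, MAGEA12, MAGEA3 and MAGEA6. Within this stretch, CSAG1, CSAG2 with CSAG3 and MAGEA12 were higher, MAGEA2 with MAGEA2B was lower, and MAGEA3 with MAGEA6 was not called.

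PASD1 encodes a germ-line protein that inhibits the circadian transcription factors CLOCK and BMAL1. It showed the largest fall of any family row. Its level was 43.5, 42.4 and 47.3 CPM in parental libraries and 0.274, 0.235 and 0.453 CPM in Enz-R libraries, or 3064 counts against 17. The log2 fold change was -7.12 ± 0.16, or 139-fold lower, with an SE that can be too small on 17 counts. PASD1 (chromosome X, 151563622 to 151676739) and MAGEA4 (151912509 to 151925170) are neighbours among the family rows tested. In each Enz-R library 3 counts correspond to 0.137 to 0.194 CPM, so both genes were close to the limit of detection there.

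PRAME, on chromosome 22, encodes a substrate receptor of CUL2 ubiquitin ligases. It was at 146, 135 and 140.0 CPM in parental and 159, 155 and 159.5 CPM in Enz-R libraries, with a log2 fold change of 0.17 ± 0.06. The call was lost without parental replicate 2 (0.13) or parental replicate 3 (0.16), with total count scaling (0.07) and with no filter (0.15). The CT45A copies, whose clustered genes encode nuclear proteins, summed to 7.45, 10.02 and 7.95 CPM against 11.6, 9.47 and 10.4 CPM, and the groups overlap. Their log2 fold change of 0.32 ± 0.13 was called, but not when parental replicate 1 or 3 or Enz-R replicate 1 or 3 was left out, when it was 0.22 to 0.33, nor with total count scaling (0.22), no filter (0.30) or DESeq2 (0.31). Within the cluster, CT45A1 was called lower (-1.43 ± 0.44) and CT45A10 higher (0.47 ± 0.13), with 77.8% and 54.4% of their windows shared. Without parental replicate 2, CT45A1 was not called (-1.03).

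MAGED genes belong to an older branch that is active in many normal tissues, and MAGEC3 to a branch restricted to testis. MAGED2, which is mutated in transient antenatal Bartter syndrome, was at 108, 105 and 113 CPM in parental and 67.5, 64.4 and 67.8 CPM in Enz-R libraries, a log2 fold change of -0.71 ± 0.06. MAGED1, an adaptor of the neurotrophin receptor p75, was at 112, 103 and 114 CPM against 118, 123 and 115 CPM. The Enz-R libraries lay just above the parental ones, but the log2 fold change of 0.12 ± 0.06 was not called.

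MAGED4 with MAGED4B stood at 5.47, 1.00 and 5.71 CPM in parental and 4.29, 15.5 and 11.2 CPM in Enz-R libraries. These groups overlap. The log2 fold change was 1.29 ± 0.43, and it was not called without Enz-R replicate 2 (0.86) or by DESeq2 (1.34). MAGEC3 was at 0.557, 0.401 and 0.342 CPM against 1.23, 0.824 and 1.68 CPM, a log2 fold change of 1.46 ± 0.35 on 31 and 67 counts, while MAGEC1 had 1 and 4 counts and MAGEC2 5 and 1.

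Most family genes had few or no counts in either line. No count fell on 38 of the 102 genes in any library, including all 12 CT47A genes and 9 of 11 MAGEB genes. A count of 0 allows a level of up to 0.0433 CPM over the parental and 0.0551 CPM over the Enz-R libraries (3 counts of the summed total, counting error only). This limit does not hold for copies whose reads fit other genes, such as CT47A, which share 86.9% to 100% of their windows. Their 0 can also come from how shared reads were assigned. The SSX genes, known from their fusion to SS18 in synovial sarcoma, had at most 5 counts each over a group. The SPANX genes, which encode sperm nuclear proteins, had at most 8, the parental count of SPANXN1. SYCP1, a component of the synaptonemal complex of meiosis, had 1 and 4 counts.

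At gene level, with no summing, 30 of 102 family genes passed the filter, of which 17 were higher, 7 lower and 6 not called, with a median log2 fold change of 0.53. Over all 19029 genes tested, 64.8% were called, 32.4% higher and 32.3% lower. Of the 7 genes that match by letters only, 4 passed the filter. SSX2IP, a centrosome and adhesion protein that binds SSX2, was lower, at 59.1, 66.6 and 64.5 CPM against 39.7, 35.3 and 39.8 CPM (log2 fold change -0.73 ± 0.07). CTAGE15 (-0.27 ± 0.18), CTAGE4 (0.11 ± 0.13) and CTAGE8 (0.04 ± 0.20) were not called and share 91.0% to 94.4% of their windows with other genes.

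The promoters were read for features that the choice of members did not use. RefSeq promoters of the same 300-base window were found for 74 of the 102 family genes, and those of CTAG2, MAGEA1 and MAGEA10 are among the genes not matched. The match was by symbol, so a run need not lie at the GENCODE start. That of GAGE12B (49340914 to 49341213) lies at the start of GAGE2E (49341192), far from the GENCODE gene (49529869 to 49529985). Those of MAGEC3 and MAGEA11 lie inside the annotated genes. The median number of CG pairs was 11 (range 1 to 26), against 22 over the promoters of 15317 protein-coding genes. The 26 promoters of genes that passed the filter had a median of 13, and the 48 of genes under it a median of 10. By family median, SPANX promoters had the fewest, with 6, and CSAG promoters the most, with 18 over only 2 promoters, so the families differ among themselves. Near-identical copies enter these medians as separate promoters. Copies share their starts to different degrees: 7 of the 12 GAGE promoters are identical in all letters, and so are those of MAGEA3 and MAGEA6 and of XAGE1A and XAGE1B.

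**Figure D3:**
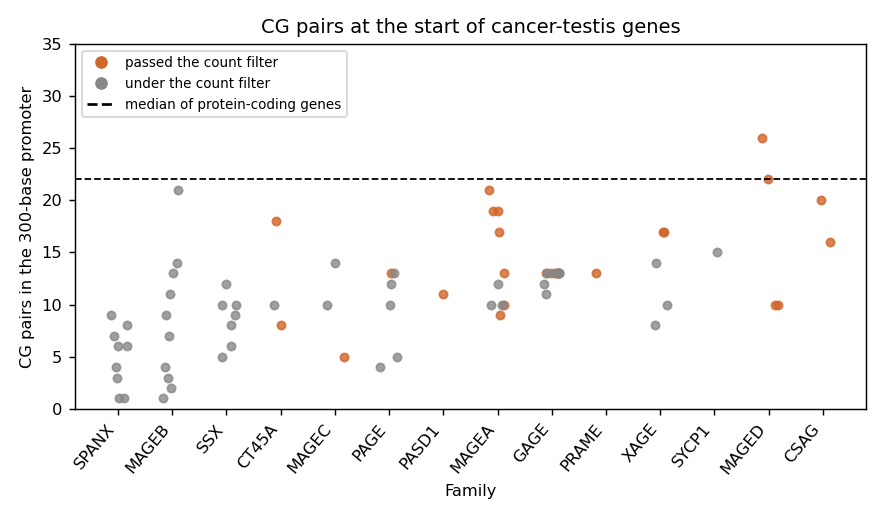
Number of CG pairs in the 300-base promoter of each of 74 family genes, grouped by family, with genes that passed the count filter in orange and those under it in grey. The dashed line is the median of 22 over protein-coding genes, and most members lie below it.

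Motifs were searched on both strands as exact letters. The ETS-type motif CGGAAG was in 10.8% of family promoters and 25.8% of protein-coding promoters. The SP1-type motif GGGCGG was in 23.0% and 59.2%, and the E2F-type motif GCGGGA in 35.1% and 35.4%. The E-box CACGTG was in 23.0% of family promoters and 8.87% of protein-coding ones. It was found in 17 members: all 12 GAGE promoters, 4 of 6 PAGE promoters (PAGE1, PAGE2B, PAGE4 and PAGE5) and XAGE3. The promoters of a family are copies of each other, so these shares do not count independent sequences. Among genes that hold the E-box, the levels differed widely: PAGE1 was the highest row per kilobase, while PAGE2B, PAGE4, PAGE5 and XAGE3 stayed under the filter. A match describes letters, not a bound site.

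The nearest tested protein-coding genes on either side were compared to see whether members moved with their surroundings. They need not be adjacent: distances ran from 0.03 kb (CTAGE4 to ARHGEF35) to 3920 kb (MAGEC3 to SLITRK2). Of 31 neighbours, 13 were higher, 10 lower and 8 not called, with a median log2 fold change of 0.13. These 31 include the autosomal neighbours of PRAME and of the genes that match by letters only. The 21 neighbours on chromosome X gave 10 higher, 5 lower and 6 not called, with a median of 0.35. Over all genes 64.8% were called, and the neighbours' share is read as near this background. PASD1 and MAGEA4 are flanked by VMA21, an assembly factor of the vacuolar proton pump (0.21 ± 0.06), and GABRE, a GABA receptor subunit (0.78 ± 0.14). Both neighbours were higher in Enz-R cells, whereas PASD1 and MAGEA4 were far lower. The CTAG genes lie between IKBKG (-0.81 ± 0.32, overlapping groups) and DKC1 (-0.02 ± 0.06, not called), so neither neighbour was higher. MAGEA10 lies between GABRE and GABRA3 (-0.25 ± 0.12, not called).

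GAGE and PAGE1 lie between PPP1R3F, a regulatory subunit of a phosphatase, which was lower (-0.68 ± 0.17), and the deubiquitinase gene USP27X, which was higher (1.08 ± 0.14). The CT45A cluster lies between INTS6L, which was lower (-0.45 ± 0.08), and SAGE1, itself a cancer-testis antigen gene outside the rule, which starts 0.119 kb beyond the cluster. SAGE1 was at 17.8, 16.3 and 16.9 CPM in parental and 40.9, 35.9 and 42.0 CPM in Enz-R libraries (1.22 ± 0.08), higher without overlap. MAGED2 shares its direction with GNL3L (-1.12 ± 0.09) but not with TRO, another MAGE-domain gene (0.43 ± 0.30, not called). MAGED1, MAGED4 with MAGED4B and XAGE1A with XAGE1B share the neighbours GSPT2 (0.43 ± 0.12) and FAM156B (1.18 ± 0.36, from 25 and 45 counts). GSPT2 lies 56.8 to 749 kb and FAM156B 371 to 989 kb from these members.

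MAGEA11 lies between TMEM185A and EOLA2, neither of which was called (0.13 ± 0.11 and -0.04 ± 0.08). The stretch of MAGEA3 to MAGEA6 lies between GABRQ (0.45 ± 0.28, not called) and CETN2 (0.35 ± 0.07). MAGEA1 lies between PNMA6A, which was higher (0.68 ± 0.18), and ZNF275, which was lower (-0.71 ± 0.07). LDOC1, left of MAGEC3, was higher (0.65 ± 0.08), and SLITRK2, 3920 kb to its right, had 2 parental and 52 Enz-R counts. PRAME lies between ZNF280B (0.00 ± 0.12) and RSPH14 (-0.21 ± 0.25), both not called. Beside the genes that match by letters only, EPHA1, TCAF1 and TCAF2 were higher (0.39 to 0.94) and CTBS, LPAR3, ARHGEF35, OR2A7 and ARHGEF5 lower (-1.46 to -0.79).

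**Figure D4:**
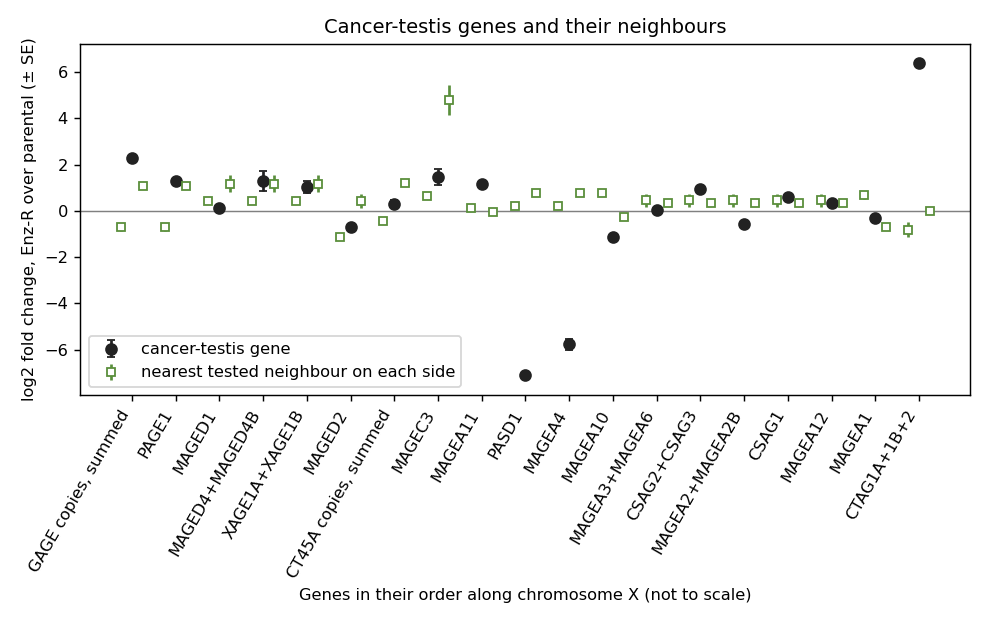
Log2 fold change, Enz-R over parental, with SE, of the family rows on chromosome X (black) and of the nearest tested protein-coding gene on each side (green squares), in chromosome order and not to scale. PASD1 (-7.12), MAGEA4 (-5.77) and the CTAG row (6.40) lie far from their neighbours, and the high square beside MAGEC3 is SLITRK2, which rests on 2 parental counts.

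Chromosome X as a whole was not level. Of 461 other protein-coding genes of chromosome X that were tested, 237 were higher and 103 lower, with a median log2 fold change of 0.26. Off chromosome X, 4066 of 13085 were higher and 4950 lower, with a median of -0.06. The family rows, with a median of 0.33, lie mostly on chromosome X, and the part of this shift in their changes was not tested.

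Genes that write, read or erase DNA methylation were mostly lower in Enz-R cells: of 14 tested, 10 were lower and 1 was higher, with a median log2 fold change of -0.28. Over all genes tested, 32.3% were lower and 32.4% higher, with a median of 0.01. DNMT3A, a methyltransferase that sets new methylation, was at 84.6, 88.0 and 88.2 CPM in parental and 38.6, 37.7 and 38.6 CPM in Enz-R libraries, a log2 fold change of -1.18 ± 0.06. TET3, which oxidises methylated cytosine toward its removal, was lower (-0.89 ± 0.07), and so was UHRF1, which recruits the maintenance enzyme to newly copied DNA (-0.79 ± 0.08). DNMT1, that maintenance enzyme, was 180.0 ± 9.38 CPM against 159.9 ± 9.63 CPM (-0.17 ± 0.07, called lower). DNMT3B was not called (-0.16 ± 0.07). The reader MBD2 was higher (0.35 ± 0.08). DNA methylation itself was not analysed here.

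Of 18 genes of complexes that repress germ-line genes, 9 were lower, 1 was higher and 8 were not called, with a median of -0.18, so the number called was not above the 64.8% of all genes. SIN3A, a scaffold of histone deacetylases (-0.61 ± 0.06), ATF7IP, a cofactor of SETDB1 (-0.52 ± 0.07), and the deacetylase HDAC1 (-0.42 ± 0.06) were the 3 largest falls. MAX, the partner of MGA in the complex that binds E-boxes, was higher (0.34 ± 0.07). E2F6, which represses meiotic genes, was not called (-0.17 ± 0.08). Among genes listed as activators or other regulators of cancer-testis genes, 8 were tested, 5 lower and 1 higher, with a median of -0.32. Over all genes, 32.3% were lower and 32.4% higher. The list also holds CTCF and KDM1A, so its count of falls is not one of activators alone. KDM1A, a histone demethylase (-0.85 ± 0.06), SP1 (-0.72 ± 0.06) and ELF1 (-0.44 ± 0.10) were lower and ETS2 was higher (0.80 ± 0.13). CTCFL, a testis paralog of CTCF reported to activate such genes, had 2 parental counts and none in Enz-R.

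**Figure D5:**
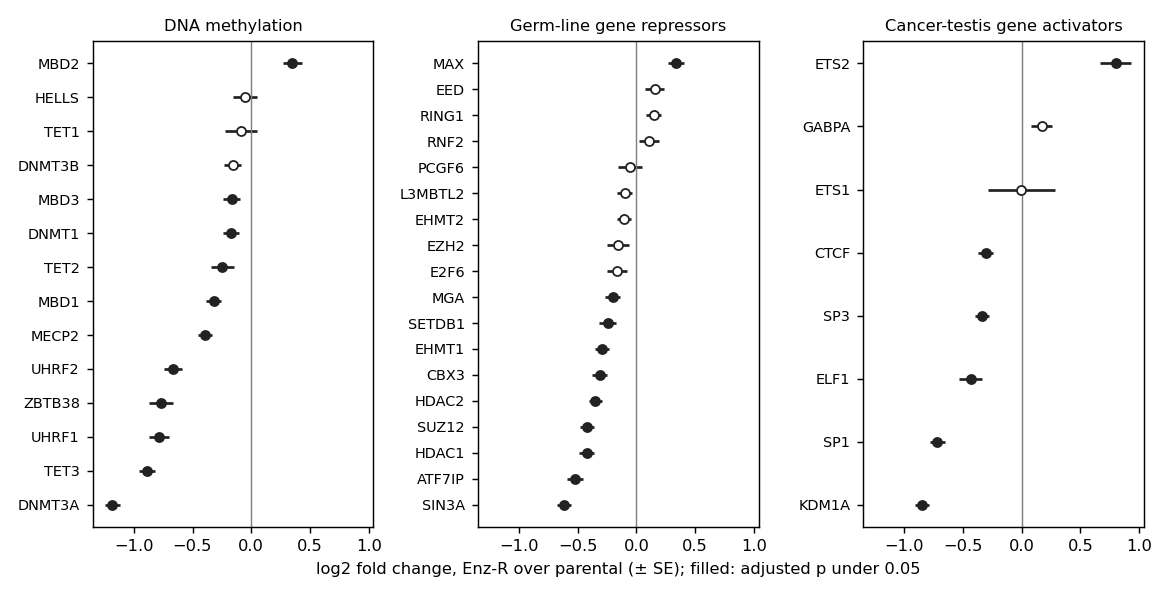
Log2 fold change, Enz-R over parental, with SE, of tested genes in 3 lists, with filled points for genes past the threshold. The lists are DNA methylation, germ-line gene repressors, and activators or other regulators of cancer-testis genes. The points run from DNMT3A (-1.18) to MBD2 (0.35), from SIN3A (-0.61) to MAX (0.34), and from KDM1A (-0.85) to ETS2 (0.80).

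Partners of the encoded proteins went both ways: of 15 tested, 5 were higher and 7 lower, with a median of 0.03, beside 32.4% higher and 32.3% lower over all genes. TRIM28, the ligase bound by MAGEA3 and MAGEA6, was at 373, 378 and 399 CPM in parental and 547, 508 and 509 CPM in Enz-R libraries (0.44 ± 0.06). The AMPK subunits PRKAA1 (-0.50 ± 0.06) and PRKAA2 (-0.51 ± 0.16) were lower, the second not without Enz-R replicate 3 (-0.37). Of the ligase that PRAME joins, the adaptors ELOB (0.79 ± 0.09) and ELOC (0.55 ± 0.09) were higher and the scaffold CUL2 was lower (-0.46 ± 0.07). The largest fall in this list by fold was SYCP2, a synaptonemal complex protein, from 2.02, 3.36 and 2.98 CPM to 1.05, 0.941 and 1.10 CPM.

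Other genes with a MAGE domain mostly did not pass the threshold: of 5 tested (64.8% called over all genes), NDN, an imprinted growth suppressor, was higher (0.62 ± 0.08) and MAGEF1 was lower (-0.22 ± 0.08), with 3 not called. MAGEF1 overlapped between groups and lost its call without parental replicate 1 (-0.20) or Enz-R replicate 2 (-0.15).

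Among 52 other germ-line and cancer-testis genes, 24 were tested, with 7 higher, 7 lower and a median of -0.13, and the number called was near the 64.8% of all genes. TEX15, a factor of meiotic recombination and transposon silencing, was at 3.55, 4.61 and 3.90 CPM against 9.64, 8.88 and 8.87 CPM (1.19 ± 0.14). The meiotic recombinase DMC1 (1.05 ± 0.15) and the helicase antigen DDX43 (0.61 ± 0.14) were also higher. TEX19, a placenta and germ-line protein, was at 24.0, 16.9 and 20.7 CPM against 6.44, 7.24 and 6.15 CPM (-1.64 ± 0.13), and the meiotic cohesin subunit STAG3 was lower (-0.46 ± 0.11).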

How the data were processed

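The values deposited by the authors are unscaled whole-number counts for each gene in each library. Per the submitters' processing notes, HISAT2 and the GRCh38 build were used for the 150 bp read pairs. Not given in the sources used here are the counting tool, its annotation, its strand setting and its handling of reads that fit several genes. Identifiers were named and placed from GENCODE 29. Close paralogs were summed to 1 row each. The test between groups was edgeR's quasi-likelihood test (version 4.0.16, R 4.3.3; filterByExpr with min.count 10, TMM scaling, no covariate), with Benjamini-Hochberg adjustment over all rows tested and 0.05 as the threshold. Each SE is the log2 fold change divided by the root of F. Totals ran from 15673404 to 28247038 counts, and precision is limited by 3 libraries a group. Alternatives used DESeq2 1.42.0 and limma 3.58.1 among others.

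Members, lists and tests were chosen with earlier results of these data known. Every family row that passed the filter is named. From each list, up to 3 higher and 3 lower called genes with at least 5 CPM in the higher group are named, largest fold change first. DNMT1, DNMT3B, E2F6, CTCFL and SYCP2 were named after their values were seen. All nearest tested neighbours are given. Windows of 150 bases were taken from the longest GENCODE 29 transcript of each member and sought in all transcripts of other genes. Promoters came from RefSeq on GRCh38.p14 and were matched by symbol. Figures used matplotlib 3.10.9. The value of 1 gene of the prostate luminal list is not reported singly.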

Additional observations from a re-analysis of the deposited data

How the results depend on the processing

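Tried were a replicate block, each library left out in turn, scaling by DESeq2 size factors or by total count, no filter on low counts, a stricter filter (at least 50 counts in 3 libraries), and the tests of DESeq2 and limma-voom. The 18 summed rows called kept 16 to 18 of their calls, and none reversed. Those lost were CT45A, PRAME, MAGED4 with MAGED4B, and, under the stricter filter, XAGE1A with XAGE1B and MAGEC3, which were then not tested. MAGED1 was called higher under the stricter filter (0.15). MAGEA3 with MAGEA6, not called, changed sign with total count scaling (-0.04). Leaving out libraries gave 10 to 11 summed rows higher and 6 lower, and 16 to 18 genes higher and 6 to 9 lower at gene level. Listed genes ran from 15 to 18 higher and 33 to 38 lower, and neighbours gave 13 higher each time and 9 to 10 lower. With no filter, 11 single genes were lower, against 7: XAGE2, XAGE3 and SPANXN1, under the filter before, and CSAG2, tested before but not called, were added. GAGE12F, MAGED4B, SPANXB1 and CTAG1A, each with more counts in Enz-R, were also called then, and MAGEA3 and PRAME lost their calls. Same-numbered libraries did not deviate together (r of deviations 0.0493, -0.00808 and 0.0112), so the numbers were not taken as pairs. With the replicate block, 12 summed rows were higher and 6 lower, and 17 single genes higher and 8 lower (CSAG2 added). Genes under a few counts are limited by depth.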

Other observations

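DDX53, a helicase gene known as a cancer-testis antigen (CAGE) and outside the family rule, was named after its values were seen. It lies on chromosome X (22999961 to 23003589) and had 275 counts over the parental and 1 count over the Enz-R libraries. On TMM-scaled totals the ratio of sums was 216-fold lower in Enz-R, with a 95% counting interval of 38.5 to 8563, which covers counting error only. PLAC1, a placental gene also listed among cancer-testis antigens, was at 0.139, 0.200 and 0 CPM in parental and 1.14, 0.941 and 1.04 CPM in Enz-R libraries, or 8 counts against 57. MEIOB, a meiotic recombination factor, was at 1.81, 1.55 and 1.32 CPM against 0.183, 0.471 and 0.129 CPM, or 110 counts against 14. Both were called at gene level (edgeR), in opposite directions, and both were chosen after their values were seen.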
